A study of Mus musculus with 6 samples.

Results

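The values described here are those of 10 mouse genes that make and use microRNAs or hold them in check, in mouse embryonic stem cells (mESC) that had lost the 3 TET enzymes. TET1, TET2 and TET3 oxidize 5-methylcytosine in DNA. The genes are *Drosha*, *Dgcr8*, *Xpo5*, *Dicer1*, *Tarbp2*, *Ago1*, *Ago2*, *Lin28a*, *Lin28b* and *Trim71*. They were picked by symbol, from the mouse symbols of the Ensembl identifiers in the deposited files, and make up 10 of the 22380 gene identifiers listed. All 10 had values and all 10 passed the filter on low values that the test used.

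A microRNA is cut out of a long primary transcript in the nucleus by the Microprocessor, the nuclease DROSHA with its RNA-binding partner DGCR8. The resulting hairpin leaves the nucleus on exportin 5, the product of *Xpo5*, and is cut again by DICER with its partner TARBP2. One strand is then loaded on an Argonaute protein and guides it to messenger RNAs, mainly through a short stretch near its 5′ end called the seed. LIN28A and LIN28B bind the precursors of the let-7 microRNAs and block their maturation in stem cells, and TRIM71 is an RNA-binding protein of early development whose own messenger RNA is a classical let-7 target.

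RNA was measured in 6 mESC lines, 3 *Ctrl* and 3 *Tet iTKO*, each line coming from a different embryo. Lines of both groups carried a tamoxifen-activated Cre (*CreERT2*, driven by the ubiquitin C promoter) and the *Rosa26-LSL-H2B-Egfp* reporter, and only the *Tet iTKO* lines also carried floxed alleles of *Tet1*, *Tet2* and *Tet3* (*fl/fl* at each locus). All lines were grown in 2i medium on fibroblast feeders, received 1 µM 4-OHT (the active form of tamoxifen) for 2.5 days and were kept 4 more days without it, so that control cells saw the same drug and the same active Cre. At day 6.5 the cells were sorted as live, EGFP-positive, CD326-positive and Thy1.2-negative, and libraries of polyadenylated RNA were made with Smart-Seq2. Mature microRNAs carry no poly(A) tail and were not measured, so the values speak of the messenger RNAs of the pathway and not of its products.

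The deposited values are normalized counts, which are reads per gene divided by a size factor for each library and rounded. They summed to between 3964824 and 4219665 per library, and between 13431 and 14363 genes had a value above 0. Whole-gene counts do not check the deletion, because the reads of the floxed exons cannot be set apart. *Tet1* had 696, 682 and 716 normalized counts in controls, against 787, 895 and 753 in *Tet iTKO* mESC. *Tet2* had 249, 170 and 230 against 233, 268 and 211. *Tet3* had 28, 13 and 13 against 10, 3 and 3. Of the 12 embryonic stem cell markers, *Pou5f1*, *Nanog*, *Sox2* and *Esrrb* were above 900 normalized counts in every line while *Fut4*, a fucosyltransferase gene, was at most 2. Of the 11 tested, 3 were higher and 5 lower in *Tet iTKO* mESC, beside 16.4% and 18.4% of all genes tested. *Pou5f1* and *Nanog* were among the lower (log2 fold changes -0.29 and -0.30, limma adjusted p = 5.7e-06 and 0.00038). *Esrrb* was higher (0.29, limma adjusted p = 0.0003) and *Sox2* did not pass. After the correction described below, 2 were higher and 3 lower, beside 9.80% and 19.2% of all genes.

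Sequences of the let-7 microRNAs are shown first because LIN28 proteins bind their precursors and the *Trim71* messenger RNA is a let-7 target. The 9 mature let-7 sequences found in the RefSeq table (GRCm38.p6) shared the seed, bases 2 to 8, which is in capitals below. The third line gives a microRNA of the miR-290 cluster, the most abundant microRNAs of mESC. Its seed AAGUGCU was shared by 3 of the 8 sequences of the 3p arm with miR-290 to miR-295 names in the table. Of these 8, miR-290b-3p and miR-292b-3p lie on the minus strand, opposite to the others.

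mmu-let-7a-5p: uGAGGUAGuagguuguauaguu

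mmu-let-7g-5p: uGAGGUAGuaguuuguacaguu

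mmu-miR-294-3p: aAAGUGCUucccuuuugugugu

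LIN28 proteins are known to hold let-7 precursors by a GGAG motif in the loop side of the hairpin. GGAG was present in 9 of the 12 let-7 hairpins in the table. The 2 hairpins below, from the plus strands of chr9:106178840-106178927 and chrX:151913214-151913321, differ in this respect. GGAG is in capitals in the first, and the second has none.

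Mirlet7g: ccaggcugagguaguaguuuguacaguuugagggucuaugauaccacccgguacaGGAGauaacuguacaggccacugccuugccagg

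Mir98: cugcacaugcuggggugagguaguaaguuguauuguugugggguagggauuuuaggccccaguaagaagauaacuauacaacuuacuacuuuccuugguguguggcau

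The let-7 seed match CTACCTC was searched on the sense strand of the 3′ UTR of each gene, in its longest coding transcript. It was found 4 times in *Trim71*, 4 times in *Lin28b*, 3 times in *Ago2*, 2 times in *Lin28a* and 1 time in *Tarbp2*. No match lay in the 3′ UTR of *Drosha*, *Dgcr8*, *Xpo5*, *Dicer1* or *Ago1*. Thus 5 of the 10 genes had a match, beside 8.94% of 20754 coding genes and 20% of the 5302 genes whose 3′ UTR is at least 2000 bases long. The ties of *Lin28a*, *Lin28b* and *Trim71* to let-7 were known beforehand, so the comparison is a description and not a test. Longer 3′ UTRs hold more matches, and those of *Ago2*, *Trim71* and *Lin28b* had 11064, 5512 and 4445 bases. One site of each of the 5 genes is shown with the match in capitals, read 5′ to 3′ on the sense strand of GRCm38. A match is a run of letters and not a shown site of binding.

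*Lin28a*, chr4:134005189-134005211, minus strand: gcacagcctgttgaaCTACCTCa

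*Lin28b*, chr10:45381022-45381044, minus strand: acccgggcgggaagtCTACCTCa

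*Trim71*, chr9:114512472-114512494, minus strand: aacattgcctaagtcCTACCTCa

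*Ago2*, chr15:73097982-73098004, minus strand: ttttacaatgtggatCTACCTCa

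*Tarbp2*, chr15:102523429-102523451, plus strand: ccagaggtgccatctCTACCTCt

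The question put to each gene was whether its RNA differed between *Ctrl* and *Tet iTKO* lines. *Dgcr8* and *Tarbp2*, the RNA-binding partners of the 2 nucleases, fell in *Tet iTKO* mESC, by 0.42 and 0.39 on the log2 scale. *Xpo5*, *Ago1*, *Ago2* and *Trim71* rose, by 0.40, 0.69, 0.39 and 0.28. *Drosha*, *Dicer1*, *Lin28a* and *Lin28b* did not pass the test. The test was limma on log2(normalized count + 1) adjusted by Benjamini-Hochberg across 10524 genes, those averaging at least 10, and a gene passed at an adjusted p under 0.05.

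So 6 of the 10 genes passed, 4 upward and 2 downward. Over all genes tested 34.8% passed, 16.4% upward and 18.4% downward. The groups did not overlap, with every line of one above every line of the other, for 6 of the 10 genes, which were *Xpo5*, *Ago1*, *Ago2* and *Lin28b* upward and *Dgcr8* and *Tarbp2* downward. Over all genes tested this share was 44.1%, with 21.2% upward and 22.9% downward. The median log2 fold change of the 10 genes was 0.21, and that of all genes tested was 0.01.

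Across these libraries the log2 fold change went with transcript length. Its median was 0.24 over the 906 genes whose longest transcript has at least 7000 bases and -0.21 over the 2188 genes under 2000 bases. Spearman's rho across genes was 0.293 with length and 0.258 with GC content, as a description, since genes are not independent. *Ago1*, *Ago2*, *Trim71* and *Dicer1* belong to the long genes, with longest transcripts of 7227, 13800, 9332 and 9851 bases. A second value is therefore given for each gene, after a smooth trend on GC content and length was subtracted within each library. On that scale 2 of the 10 genes passed, *Dgcr8* and *Tarbp2*, both downward, and none of the 4 upward calls was left. Over all genes, 29.0% passed on that scale, 9.80% upward and 19.2% downward. The medians were then -0.06 for the 10 genes and -0.06 for all genes.

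**Figure D1:**
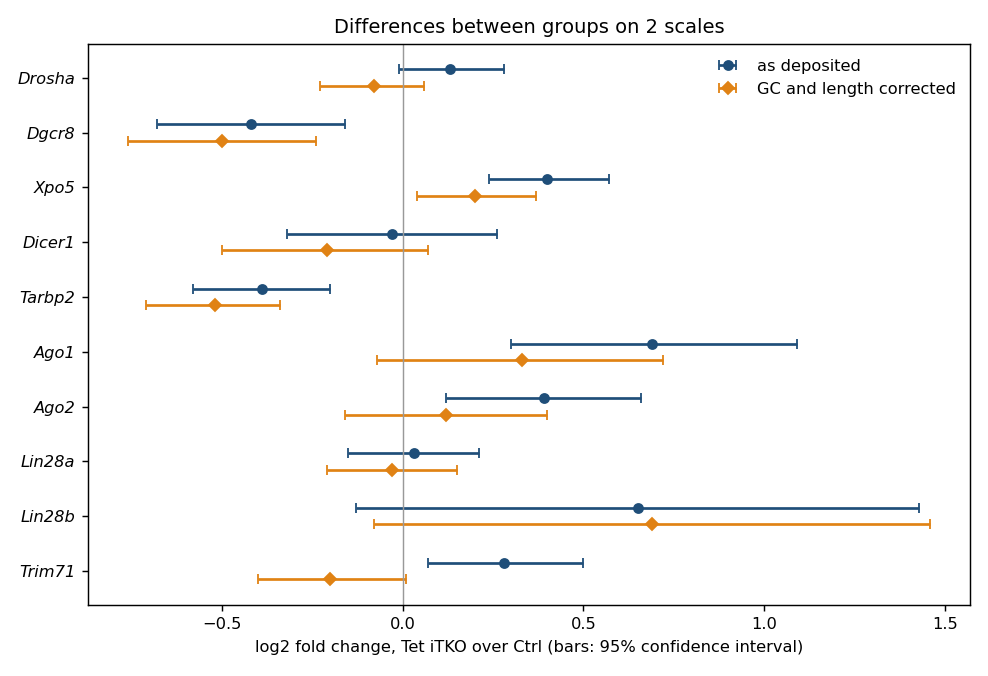
Log2 fold changes of the 10 genes, *Tet iTKO* over *Ctrl*, with 95% confidence intervals from limma (3 lines per group). Circles are the deposited scale and diamonds the values after correction for GC content and length; *Dgcr8* and *Tarbp2* lie left of 0 on both scales, and *Trim71* moves from 0.28 to -0.20.

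*Drosha* encodes the nuclease of the Microprocessor (ENSMUSG00000022191.8, plus strand of chr15:12824815-12935291, GRCm38). It had 941, 922 and 814 normalized counts in controls, against 1027, 970 and 932 in *Tet iTKO* mESC. The groups overlapped, with *Ctrl* replicate 1 above *Tet iTKO* replicate 3. The log2 fold change was 0.13 ± 0.07 (SE, limma adjusted p = 0.15). After correction it was -0.08 (limma adjusted p = 0.42), so its direction depended on the scale. With quantile normalization and with libraries rescaled to equal totals it was 0.22 on both, and passed (limma adjusted p = 0.013 and 0.015).

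*Dgcr8* encodes the partner of DROSHA that grips the primary transcript (ENSMUSG00000022718.5, minus strand of chr16:18253948-18289246, GRCm38). It had 213, 232 and 218 normalized counts in controls, against 156, 176 and 163 in *Tet iTKO* mESC. Every *Tet iTKO* line was below every *Ctrl* line. The mean fell from 221 ± 9.85 to 165 ± 10.1 (SD, n = 3 in each group), a log2 fold change of -0.42 ± 0.13 (SE, limma adjusted p = 0.010). The corrected log2 fold change was -0.50 (limma adjusted p = 0.0031), and the call held in all 6 fits that left out 1 line, with values from -0.47 to -0.38.

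The *Dgcr8* gene holds hairpins that DROSHA and DGCR8 themselves are known to cut, which ties the level of this messenger RNA to the activity of its product. The hairpin annotated as *Mir1306* lies in a coding exon of *Dgcr8*, at chr16:18284239-18284317 on the minus strand, and is shown in full for that reason.

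Mir1306: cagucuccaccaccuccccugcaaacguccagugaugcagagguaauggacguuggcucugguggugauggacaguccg

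A second annotated hairpin, *Gm24572*, also lies in exon sequence of *Dgcr8*, and neither hairpin has an entry of its own in the files. *Trmt2a*, a gene of the opposite strand that overlaps *Dgcr8* by 825 bases, had 516, 503 and 510 normalized counts in controls, against 467, 428 and 435 in *Tet iTKO* mESC (log2 fold change -0.20, limma adjusted p = 0.065). Smart-Seq2 does not keep the strand, so reads of the shared bases cannot be told apart. *Gm49776*, a coding gene annotated on the same strand over 4374 bases of *Dgcr8*, has no entry in the files either.

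The ratio of *Drosha* to *Dgcr8* shows both subunits in 1 value. On the log2 scale of normalized counts it was 2.14, 1.99 and 1.90 in controls, against 2.71, 2.46 and 2.51 in *Tet iTKO* mESC. The groups did not overlap, and the difference was 0.55. The exact two-sided permutation test gave p = 0.1, the smallest that 3 lines against 3 allow (0.167 after adjustment over the 5 gene pairs compared). On the corrected scale the difference was 0.41 (exact two-sided permutation p = 0.1).

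*Xpo5* encodes exportin 5, which carries hairpins out of the nucleus (ENSMUSG00000067150.5, plus strand of chr17:46202782-46243598, GRCm38). It had 628, 598 and 527 normalized counts in controls, against 765, 837 and 715 in *Tet iTKO* mESC. All 3 *Tet iTKO* lines were above all 3 *Ctrl* lines. The mean rose from 584 ± 51.9 to 772 ± 61.3 (SD, n = 3 in each group), a log2 fold change of 0.40 ± 0.08 (SE, limma adjusted p = 0.00015). The corrected log2 fold change was 0.20 with a 95% interval from 0.04 to 0.37, and it missed the threshold after adjustment (limma adjusted p = 0.058).

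*Dicer1* encodes the nuclease that trims the exported hairpin (ENSMUSG00000041415.8, minus strand of chr12:104687742-104751952, GRCm38). It had 155, 146 and 175 normalized counts in controls, against 150, 158 and 157 in *Tet iTKO* mESC. The *Tet iTKO* values lay within the range of the *Ctrl* values. The log2 fold change was -0.03 with a 95% interval from -0.32 to 0.26 (limma adjusted p = 0.90), which leaves room for changes of that size in either direction. The corrected value was -0.21 (limma adjusted p = 0.28), and -0.41 (limma adjusted p = 0.028) when the trend was fitted with local lines in place of local curves.

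*Tarbp2* encodes a double-stranded RNA-binding partner of DICER (ENSMUSG00000023051.4, plus strand of chr15:102518192-102523676, GRCm38). It had 468, 505 and 537 normalized counts in controls, against 365, 371 and 416 in *Tet iTKO* mESC. The groups did not overlap. The mean fell from 503 ± 34.5 to 384 ± 27.9 (SD, n = 3 in each group), a log2 fold change of -0.39 ± 0.09 (SE, limma adjusted p = 0.00095). Correction gave -0.52 (limma adjusted p = 2.1e-05), and values stayed between -0.45 and -0.34, all past the threshold, in the 6 fits without 1 line.

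The log2 ratio of *Dicer1* to *Tarbp2* was -1.59, -1.78 and -1.61 in controls, against -1.28, -1.23 and -1.40 in *Tet iTKO* mESC. It was higher in every *Tet iTKO* line, by 0.36 on average (exact two-sided permutation p = 0.1, adjusted p = 0.167). The ratio of the 2 nucleases, *Dicer1* to *Drosha*, had means of -2.49 ± 0.24 (SD, n = 3) and -2.65 ± 0.11 (SD, n = 3) and overlapped between groups (exact two-sided permutation p = 0.5). The difference of -0.16 was -0.02 without *Ctrl* replicate 3 and -0.10 without *Tet iTKO* replicate 1.

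**Figure D2:**
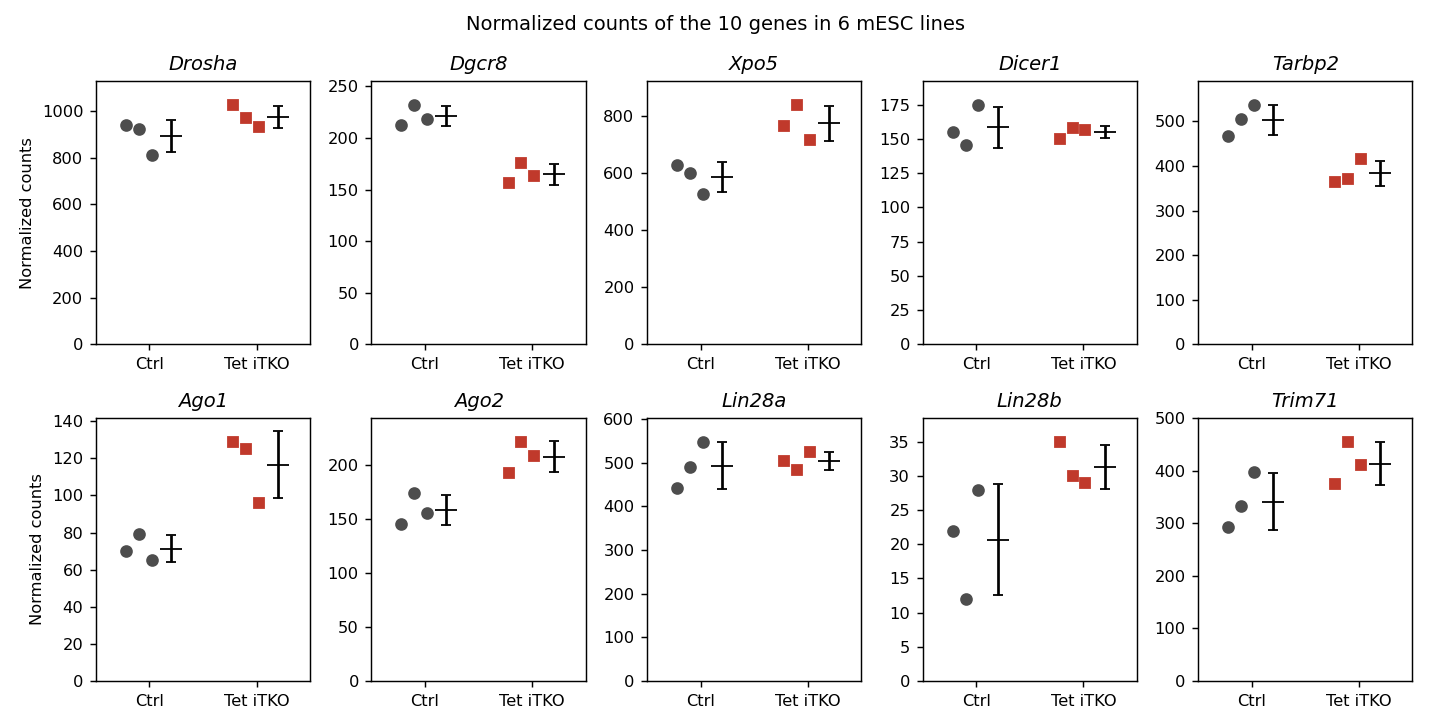
Normalized counts of the 10 genes in each of the 3 *Ctrl* (circles) and 3 *Tet iTKO* (squares) mESC lines, with mean and SD beside the points and each vertical axis starting at 0. *Dgcr8* and *Tarbp2* show separate, lower *Tet iTKO* points, and *Xpo5*, *Ago1*, *Ago2* and *Lin28b* separate, higher ones.

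*Ago1* encodes an Argonaute protein that represses but does not cut its targets (ENSMUSG00000041530.8, minus strand of chr4:126435012-126468583, GRCm38). It had 70, 79 and 65 normalized counts in controls, against 129, 125 and 96 in *Tet iTKO* mESC. No *Tet iTKO* line was as low as any *Ctrl* line. The mean rose from 71.3 ± 7.09 to 117 ± 18.0 (SD, n = 3 in each group), a log2 fold change of 0.69 ± 0.19 (SE, limma adjusted p = 0.0049), the largest of the 10 genes on the deposited scale. The correction lowered it to 0.33 with an interval from -0.07 to 0.72 (limma adjusted p = 0.22).

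*Ago2* encodes the Argonaute that can cut a fully matched target (ENSMUSG00000036698.8, minus strand of chr15:73095844-73184935, GRCm38). It had 146, 174 and 156 normalized counts in controls, against 193, 222 and 209 in *Tet iTKO* mESC. The groups did not overlap. The log2 fold change was 0.39 ± 0.13 (SE, limma adjusted p = 0.022), and it was 0.12 after correction (limma adjusted p = 0.57) and -0.11 with local lines (limma adjusted p = 0.59). The call was lost without *Ctrl* replicate 1 (0.33, limma adjusted p = 0.079), without *Tet iTKO* replicate 2 (0.34, limma adjusted p = 0.10) and without *Tet iTKO* replicate 3 (0.39, limma adjusted p = 0.061).

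*Chrac1*, a histone-fold subunit of a chromatin remodelling complex, overlaps *Ago2* on the opposite strand by 1711 bases. It had 155, 144 and 153 normalized counts in controls, against 120, 72 and 111 in *Tet iTKO* mESC and fell (log2 fold change -0.61, limma adjusted p = 0.0070). The 2 neighbours thus moved in opposite directions on the deposited scale, though the rise of *Ago2* did not pass after correction (0.12, limma adjusted p = 0.57). Here too the strand is not kept, so reads of the shared bases cannot be told apart.

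The other Argonaute genes were low. *Ago3* had 15, 13 and 22 normalized counts in controls, against 15, 21 and 24 in *Tet iTKO* mESC (log2 fold change 0.26, limma adjusted p = 0.69). *Ago4* had 0, 1 and 0 against 1, 1 and 2, too few to test. Per kb of exon, *Ago2* made up 52.2%, 53.8% and 54.4% of the 4 Argonaute messenger RNAs in controls, against 44.8%, 48.5% and 52.3% in *Tet iTKO* mESC. *Ago1* made up 41.5% ± 2.13 (SD, n = 3) and 46.8% ± 5.12 (SD, n = 3). The share of *Ago2* differed by -4.90 percentage points, with *Tet iTKO* replicate 3 inside the *Ctrl* range (exact two-sided permutation p = 0.2). It was -3.03 without *Tet iTKO* replicate 1, and the lowest value was -6.80, without *Tet iTKO* replicate 3. The log2 ratio of *Ago2* to *Ago1* also overlapped, at 1.14 ± 0.10 (SD, n = 3) and 0.84 ± 0.27 (SD, n = 3), with an exact two-sided permutation p of 0.2. That difference was -0.30, and it was -0.17 without *Tet iTKO* replicate 1 and -0.44 without *Tet iTKO* replicate 3.

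No member reached a log2 fold change of 1, so likeness was measured for *Ago1*, the one with the largest on the deposited scale. Among 7788 other genes with a mean of at least 50, the log2 values of *Vps37b*, *Slc22a17* and *Pigt*, each centred on its own mean, came closest over the 6 lines. Their root mean square differences from *Ago1* were 0.043, 0.047 and 0.086 on the log2 scale. *Vps37b*, a subunit of an endosomal sorting complex, had 75, 91 and 72 normalized counts in controls, against 137, 138 and 110 in *Tet iTKO* mESC. *Slc22a17* encodes a membrane transporter family protein and *Pigt* a subunit of the enzyme that attaches GPI anchors.

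*Lin28a* encodes the LIN28 protein best known from mESC (ENSMUSG00000050966.2, minus strand of chr4:134003330-134018841, GRCm38). It had 442, 490 and 548 normalized counts in controls, against 503, 482 and 524 in *Tet iTKO* mESC. All *Tet iTKO* values fell inside the *Ctrl* range. The log2 fold change was 0.03 with a 95% interval from -0.15 to 0.21 (limma adjusted p = 0.81), and -0.03 after correction (limma adjusted p = 0.84).

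*Lin28b* encodes its paralog (ENSMUSG00000063804.6, minus strand of chr10:45376620-45486395, GRCm38). It had 22, 12 and 28 normalized counts in controls, against 35, 30 and 29 in *Tet iTKO* mESC. The groups did not overlap, though *Ctrl* replicate 3 and *Tet iTKO* replicate 3 were 1 count apart. The log2 fold change of 0.65 had a standard error of 0.38 and a 95% interval from -0.13 to 1.43 (limma adjusted p = 0.20). Fits without 1 line gave 0.32 to 0.90, so at this depth a change could be neither shown nor bounded closely. The corrected value was 0.69 (limma adjusted p = 0.18).

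*Lin28b* stayed far below *Lin28a* in every line. Their log2 ratio was -4.27, -5.24 and -4.24 in controls, against -3.81, -3.96 and -4.13 in *Tet iTKO* mESC. The difference of 0.62 had no overlap between groups and an exact two-sided permutation p of 0.1 (adjusted p = 0.167). It was 0.29 without *Ctrl* replicate 2, and also 0.29 with quantile normalization, where the groups overlapped (exact two-sided permutation p = 0.7).

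*Trim71* encodes an RNA-binding protein with a ubiquitin ligase domain (ENSMUSG00000079259.1, minus strand of chr9:114507133-114564369, GRCm38). It had 292, 333 and 398 normalized counts in controls, against 374, 455 and 410 in *Tet iTKO* mESC. *Ctrl* replicate 3 lay above *Tet iTKO* replicate 1, so the groups overlapped. The log2 fold change was 0.28 ± 0.11 (SE, limma adjusted p = 0.036). After correction it was -0.20 (limma adjusted p = 0.16), and with local lines -0.35, past the threshold in the other direction (limma adjusted p = 0.0065). The upward call was also lost without *Ctrl* replicate 1 (0.18, limma adjusted p = 0.23), *Ctrl* replicate 2 (0.27, limma adjusted p = 0.093), *Tet iTKO* replicate 2 (0.21, limma adjusted p = 0.20) or *Tet iTKO* replicate 3 (0.29, limma adjusted p = 0.083).

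Levels of different genes were compared as normalized counts per kb of the gene's merged exons. In *Ctrl* mESC *Drosha* was highest, with 150 ± 11.5 (SD, n = 3), followed by *Lin28a* with 123 ± 13.3, *Tarbp2* with 111 ± 7.59 and *Xpo5* with 85.2 ± 7.56. *Trim71* and *Dgcr8* were intermediate, at 36.5 ± 5.73 and 28.7 ± 1.28. *Ago2*, *Dicer1* and *Ago1* were low, at 11.3 ± 1.01, 9.47 ± 0.886 and 8.78 ± 0.874, and *Lin28b* lowest at 2.28 ± 0.892. Lines of *Lin28a* and *Tarbp2* overlapped, as did those of *Ago2* and *Dicer1* and of *Dicer1* and *Ago1*, so the order within these pairs is not set.

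In *Tet iTKO* mESC *Xpo5*, at 113 ± 8.94 per kb, stood above *Tarbp2*, at 84.4 ± 6.13, with no overlap, the reverse of their order in *Ctrl*. Lines of *Lin28a* and *Xpo5* overlapped there. *Ago1* at 14.4 ± 2.22 stood above *Dicer1* at 9.25 ± 0.260, also with no overlap. Divided by the longest transcript in place of merged exons, *Tarbp2* was at 184 and *Lin28a* at 141 per kb in *Ctrl*, *Tarbp2* at 141, *Lin28a* at 144 and *Xpo5* at 152 in *Tet iTKO*, and *Ago1* at 16.1 and *Dicer1* at 15.7. The nearer ranks thus depend on which isoform is assumed.

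**Figure D3:**
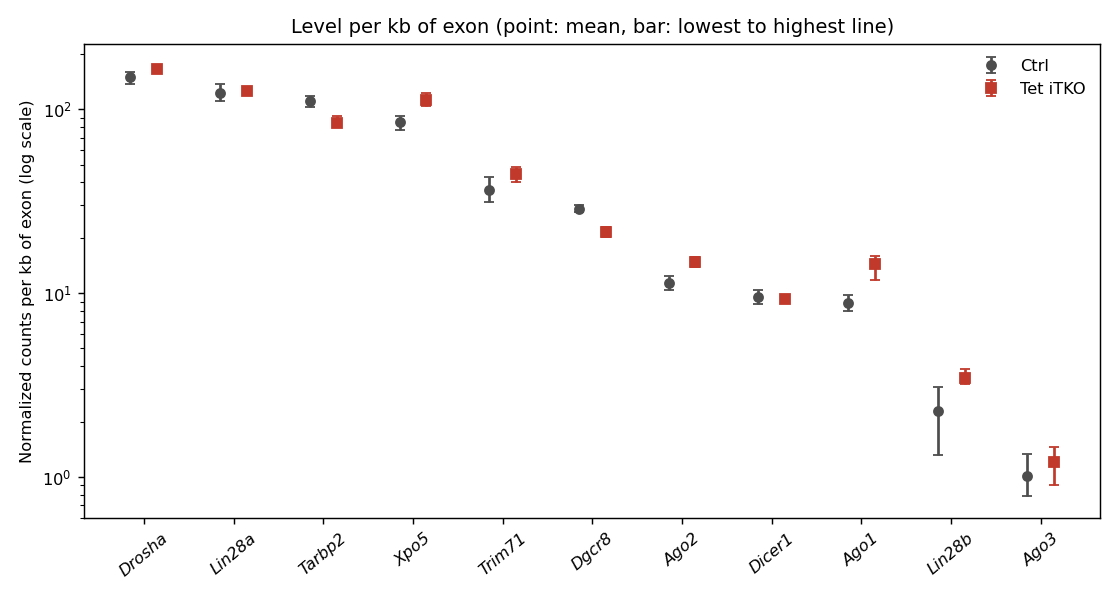
Normalized counts per kb of exon on a log axis for the 10 genes and *Ago3*, in order of the *Ctrl* mean, with circles for *Ctrl* and squares for *Tet iTKO* (mean of 3 lines, bars from the lowest to the highest line). *Drosha* has the highest mean in both groups, and *Lin28b* lies below every other member.

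The 250 bases upstream of the start were taken from RefSeq (GRCm38.p6) for the 9 members with an entry, since CpG sites are where TET enzymes act. *Ago2* had no entry. *Dicer1* had 39 CpG sites, *Dgcr8* 36, *Drosha* 33, *Xpo5* 33, *Ago1* 26 and 28 at its 2 starts, *Tarbp2* 18, *Trim71* 17, *Lin28a* 7 and *Lin28b* 6. Over 32851 promoters the median was 6 and the quartiles 2 and 16. The windows of the 2 LIN28 genes were thus near the median, and those of the other 7 genes were above the upper quartile. The *Lin28b* window, chr10:45470202-45470451, lies inside the annotated gene, whose 5′ end is at chr10:45486395. It belongs to an internal RefSeq start, and the bases before the annotated 5′ end of *Lin28b* were not examined. The windows of *Dgcr8*, *Xpo5* and *Lin28a* also run partly into the annotated gene. For *Dgcr8* the annotated 5′ end is at chr16:18289246, inside its window of chr16:18289169-18289418. The upstream sequences of *Dgcr8* and *Tarbp2*, the genes that fell on both scales, are given with CpG in capitals. No methylation was measured in these files.

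*Dgcr8*, chr16:18289169-18289418, minus strand: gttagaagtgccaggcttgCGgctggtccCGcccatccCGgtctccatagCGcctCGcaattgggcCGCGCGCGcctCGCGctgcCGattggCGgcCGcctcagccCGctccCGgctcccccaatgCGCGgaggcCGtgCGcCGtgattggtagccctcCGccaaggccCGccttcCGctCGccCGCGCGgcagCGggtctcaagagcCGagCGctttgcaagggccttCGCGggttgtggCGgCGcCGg

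*Tarbp2*, chr15:102517942-102518191, plus strand: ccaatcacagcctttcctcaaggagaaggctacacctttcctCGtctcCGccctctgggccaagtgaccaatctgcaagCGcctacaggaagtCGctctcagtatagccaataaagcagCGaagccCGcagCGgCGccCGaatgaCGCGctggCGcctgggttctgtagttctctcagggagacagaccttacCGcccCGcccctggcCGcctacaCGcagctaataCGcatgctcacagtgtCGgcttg

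The other genes of the pathway were taken from 9 lists. Their counts stand beside shares over all genes of 16.4% higher and 18.4% lower as deposited, and of 9.80% higher and 19.2% lower after correction. Among cofactors of the Microprocessor, 1 of 15 genes tested rose and 4 fell, with a median log2 fold change of -0.01, and after correction none rose and 5 fell, with a median of -0.11. *Srsf3*, a splicing factor that binds primary transcripts beside the hairpin, had 3599, 3235 and 3318 normalized counts in controls, against 2540, 2471 and 2461 in *Tet iTKO* mESC. It fell by 0.44 on the log2 scale (limma adjusted p = 7.3e-09) and by 0.31 after correction (limma adjusted p = 3.7e-06). *Ddx5*, the helicase p68 of the Microprocessor, fell by 0.35 (limma adjusted p = 2.9e-06) and by 0.24 after correction (limma adjusted p = 0.00036).

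*Zranb2*, another splicing factor of that list, fell by 0.36 (limma adjusted p = 0.0017), and its corrected value was -0.16 (limma adjusted p = 0.20). *Khsrp* encodes KSRP, which binds the loop of let-7 precursors and promotes their processing. It had 1010, 1285 and 1328 normalized counts in controls, against 1726, 1739 and 1642 in *Tet iTKO* mESC, a rise of 0.50 (limma adjusted p = 5.7e-07) that came to 0.08 after correction (limma adjusted p = 0.41).

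Among export and Dicer partners, 1 of 7 genes tested rose and 1 fell, on both scales, with medians of -0.04 and -0.09. *Ran*, the GTPase that exportin 5 needs to hold its cargo, had 4889, 4701 and 4959 normalized counts in controls, against 3230, 3211 and 3319 in *Tet iTKO* mESC. It fell by 0.58 (limma adjusted p = 1.3e-12) and by 0.52 after correction (limma adjusted p = 2.3e-11), while its cargo carrier *Xpo5* was higher on the deposited scale. *Adar*, which edits adenosine in double-stranded RNA, rose by 0.50 (limma adjusted p = 0.0046), with a corrected value of 0.12 (limma adjusted p = 0.54). The gene called higher after correction was another one, *Ranbp1*, a cofactor of RAN (0.22, limma adjusted p = 0.0006), whose value was -0.12 as deposited (limma adjusted p = 0.051).

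Among the genes of the silencing complex and its loading, 3 of 16 genes tested rose and 3 fell (median 0.05), and after correction 3 rose and 4 fell (median 0.00). *Limd1*, a scaffold that joins AGO to its partners, had 85, 106 and 127 normalized counts in controls, against 161, 175 and 176 in *Tet iTKO* mESC. It rose by 0.70 (limma adjusted p = 0.00085) and by 0.45 after correction (limma adjusted p = 0.034). *Mov10*, a helicase bound to AGO, had 993, 950 and 1035 against 1477, 1399 and 1575 and rose by 0.58 (limma adjusted p = 4e-09). Its corrected value was 0.17 (limma adjusted p = 0.040), and 0.13, no longer passing, when merged exon length was used (limma adjusted p = 0.13).

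*Snd1*, a nuclease of that complex, rose by 0.30 (limma adjusted p = 0.0063), which no longer passed without *Ctrl* replicate 3 (0.21, limma adjusted p = 0.063). After the GC and length correction *Snd1* was 0.24 and passed (limma adjusted p = 0.029). It did not pass with the correction on merged exon length (0.05, limma adjusted p = 0.73). The deposited call was also lost without the filter (limma adjusted p = 0.081) and without the variance trend (limma adjusted p = 0.19). *Hspa8*, the chaperone HSC70 that opens AGO for loading, fell by 0.25 (limma adjusted p = 1.1e-06) and by 0.18 after correction (limma adjusted p = 0.00012). The *Tnrc6a*, *Tnrc6b* and *Tnrc6c* genes, whose GW182 proteins link AGO to deadenylation, had log2 fold changes of 0.03, 0.62 and 0.03 and did not pass as deposited (limma adjusted p = 0.92, 0.11 and 0.87). After correction *Tnrc6c* fell by 0.32 (limma adjusted p = 0.027).

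Among genes of deadenylation and decay, 6 of 27 genes tested rose and 3 fell (median 0.13), and after correction 5 rose and 4 fell (median 0.06). *Patl1*, which joins decapping to deadenylation, had 164, 146 and 138 normalized counts in controls, against 241, 220 and 231 in *Tet iTKO* mESC, a rise of 0.63 (limma adjusted p = 0.00028) that was 0.58 after correction (limma adjusted p = 0.00081). *Cnot10*, a subunit of the CCR4-NOT deadenylase, fell by 0.45 (limma adjusted p = 0.00011) and by 0.58 after correction (limma adjusted p = 3.1e-06). *Dcp2*, the decapping enzyme, fell by 0.59 (limma adjusted p = 0.0053) and by 0.66 after correction (limma adjusted p = 0.0031). The deposited call was lost without *Ctrl* replicate 2 (-0.46, limma adjusted p = 0.062). *Dcp1b*, its cofactor, rose by 1.00 from low values (37, 19 and 25 against 40, 59 and 63, limma adjusted p = 0.013). After correction *Dcp1b* rose by 0.87 (limma adjusted p = 0.035). Its deposited call was lost without *Ctrl* replicate 2 (0.78), *Tet iTKO* replicate 2 (0.92) or *Tet iTKO* replicate 3 (0.88), with limma adjusted p of 0.066, 0.068 and 0.082.

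Among genes of pre-microRNA tailing and turnover, 3 of 12 genes tested rose and none fell (median 0.19), and after correction 2 rose and 1 fell (median 0.12). *Msi1* encodes Musashi 1, an RNA-binding protein that can bring LIN28 to a let-7 family transcript. It had 175, 169 and 151 normalized counts in controls, against 331, 360 and 417 in *Tet iTKO* mESC. It rose by 1.15 (limma adjusted p = 9.3e-10) and by 0.76 after correction (limma adjusted p = 4.9e-06).

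*Tut4* encodes the uridyl transferase that tails let-7 precursors held by LIN28A. It had 118, 92 and 123 normalized counts in controls, against 136, 170 and 146 in *Tet iTKO* mESC, a rise of 0.44 (limma adjusted p = 0.034) that came to 0.39 after correction (limma adjusted p = 0.074). It was lost without *Ctrl* replicate 2 (0.31), *Tet iTKO* replicate 2 (0.35) or *Tet iTKO* replicate 3 (0.46), with limma adjusted p of 0.17, 0.18 and 0.067. *Zswim8*, the ligase adaptor of target-directed microRNA decay, rose by 0.78 (limma adjusted p = 0.037), with 0.11 after correction (limma adjusted p = 0.82). That call too was lost without *Ctrl* replicate 2 (0.67), *Tet iTKO* replicate 2 (0.79) or *Tet iTKO* replicate 3 (0.68), with limma adjusted p of 0.10, 0.096 and 0.14. The partner transferase *Tut7* and the exonuclease *Dis3l2*, which degrades the tailed precursor, had log2 fold changes of 0.18 and 0.41 and did not pass (limma adjusted p = 0.64 and 0.15).

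**Figure D4:**
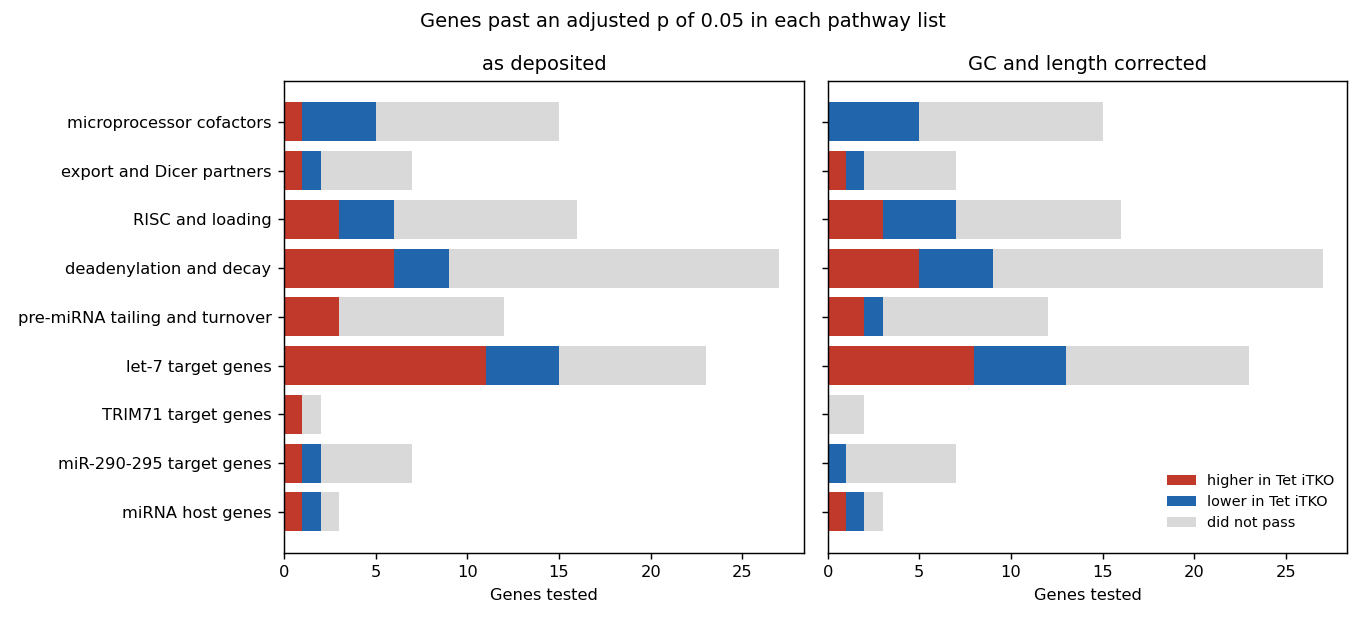
Number of genes tested in each of 9 pathway lists that were higher, lower or did not pass at a limma adjusted p of 0.05, on the deposited scale (left) and after correction for GC content and length (right). The let-7 target list had 11 genes higher and 4 lower on the left and 8 and 5 on the right.

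Among 25 textbook let-7 target genes, 23 were tested, 11 rose and 4 fell, with a median log2 fold change of 0.22, and after correction 8 rose and 5 fell, with a median of 0.06. A seed match lay in the 3′ UTR of 19 of the 25. *Igf1r*, a growth factor receptor, had 13, 5 and 14 normalized counts in controls, against 34, 33 and 25 in *Tet iTKO* mESC and rose by 1.54 (limma adjusted p = 0.0081). *Ccnd2*, a cyclin, had 17, 15 and 19 against 42, 48 and 46 and rose by 1.37 (limma adjusted p = 0.0020). *Nr6a1*, a nuclear receptor of the early embryo, had 107, 152 and 142 against 356, 275 and 302 and rose by 1.22 (limma adjusted p = 7.3e-09). Their corrected values of 1.26, 1.16 and 0.98 passed as well (limma adjusted p = 0.032, 0.0098 and 1.1e-06). With local lines *Igf1r* was 1.05 and no longer passed (limma adjusted p = 0.081).

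*Plagl1*, a zinc finger gene of that list, rose by 1.31 (limma adjusted p = 0.033) from 24, 4 and 13 normalized counts to 23, 34 and 31. After correction *Plagl1* was 1.20 and did not pass (limma adjusted p = 0.057). The deposited call was lost without *Ctrl* replicate 2 (0.68), *Tet iTKO* replicate 1 (1.47), replicate 2 (1.20) or replicate 3 (1.27), with limma adjusted p of 0.24, 0.053, 0.13 and 0.11. The list did not move as 1 block, since *Nras*, *Cdc34* and *E2f5* fell by 0.28, 0.24 and 0.51 as deposited (limma adjusted p = 0.0013, 0.00059 and 0.0086). After correction *Nras* and *Cdc34* were -0.21 and -0.33 and passed (limma adjusted p = 0.015 and 1.2e-05). *E2f5* was then -0.32 and did not pass (limma adjusted p = 0.11). These 3 genes were named after their values were seen.

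Genes with and without a let-7 match were set side by side among genes with long 3′ UTRs. Of the 605 tested genes with a match and a 3′ UTR of at least 2000 bases, 17.5% rose and 12.1% fell, with a median log2 fold change of 0.09. Of the 2299 such genes without a match, 15.2% rose and 11.4% fell, with a median of 0.07. After correction 8.43% rose and 18.3% fell with a match (median -0.06), and 7.66% and 15.2% without one (median -0.03). For AGCACTT, the match to the seed of miR-294 on the sense strand, 12.5% of 1087 such genes rose and 11.8% fell, with a median of 0.06. Among the 1817 genes without it, 17.6% rose and 11.4% fell, with a median of 0.08. After correction 5.52% rose and 16.3% fell with it, and 9.19% and 15.6% without it, both with a median of -0.04. The medians are descriptions and were not tested.

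The smaller lists gave few calls. Of the TRIM71 targets, 1 of 2 tested passed on the deposited scale and none after correction. This was *Cdkn1a*, the cell cycle inhibitor p21 and also a miR-290 cluster target, which had 375, 432 and 378 normalized counts in controls, against 493, 484 and 474 in *Tet iTKO* mESC (rise of 0.29, limma adjusted p = 0.010) and a corrected value of 0.20 (limma adjusted p = 0.092). Of 7 miR-290 cluster targets tested, *Cdkn1a* rose and *Ei24*, an endoplasmic reticulum protein, fell by 0.30 (limma adjusted p = 0.00017), with a median of 0.06 over the 7 and of -0.09 after correction. Of 24 microRNA host genes listed, 4 had values and 3 were tested. *Sfmbt2*, a Polycomb-related gene known for a large microRNA cluster in an intron, rose by 1.06 (limma adjusted p = 0.0029). It had 54, 26 and 39 normalized counts in controls, against 52, 94 and 107 in *Tet iTKO* mESC, so the groups overlapped. After correction *Sfmbt2* rose by 0.83 (limma adjusted p = 0.022). *Mcm7*, a replication helicase gene whose intron holds *Mir25*, *Mir93* and *Mir106b*, fell by 0.27 (limma adjusted p = 0.00013) and by 0.40 after correction (limma adjusted p = 6.1e-07).

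Markers of other cell states moved with the groups. All 4 tested markers of two-cell-like cells, a rare early-embryo-like state, were higher in *Tet iTKO* lines, and the summed level of the 6 markers with values ranged from 13 to 23 in *Ctrl* and from 140 to 155 in *Tet iTKO* lines. Of the 4, 3 are near-identical *Zscan4* copies, whose shared reads the authors' unique alignment leaves out. Of 5 tested markers of primed or differentiating cells 4 were higher, and the sum over 11 ranged from 2093 to 2149 and from 2480 to 2661. Most of that sum is *Dnmt3b*, at 2031, 2070 and 2033 against 2340, 2502 and 2425, whose corrected log2 fold change was 0.00 (limma adjusted p = 1), and after correction 2 of the 5 were higher. Of 8 tested fibroblast markers 4 were higher and 1 lower, and the sum over 18 ranged from 2773 to 2906 and from 3124 to 3178. *Col1a1*, a collagen gene, had 181, 170 and 150 against 304, 281 and 349, and *Col1a2* and *Col3a1* rose by 1.17 and 1.36 (limma adjusted p = 0.00033 and 0.0003). The gene that fell was *Vim*, with 1038, 1078 and 1057 against 463, 496 and 503 (log2 fold change -1.12, limma adjusted p = 1.7e-14). *Fn1*, a large part of the sum, had 1371, 1370 and 1475 against 2030, 2083 and 2020. After correction *Vim* was -1.06 (limma adjusted p = 8e-14) and *Col3a1* 1.04 (limma adjusted p = 0.0054). *Col1a1* was then 0.24 and *Fn1* 0.05, and neither passed (limma adjusted p = 0.16 and 0.57). On that scale 3 fibroblast markers were higher and 1 lower. *Postn*, *Dcn* and *Lum* were at most 15 in every line. The part of these cell states in the values of the 10 genes was not tested, and in bulk RNA a change in their number cannot be told apart from a change in RNA per cell.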

How the data were processed

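The authors aligned paired Smart-Seq2 reads of 50 bases with STAR, counted unique alignments per gene with HTSeq 0.7.1 in stranded mode although Smart-Seq2 keeps no strand, and divided the counts by DESeq2 1.26.0 size factors. What was deposited are these counts after normalization and rounding (unit score), so no count test was run. The submitters' notes name the build mm9. GENCODE M21 (GRCm38) gave symbols, lengths and coordinates for 20775 of the 22380 identifiers. RefSeq (GRCm38.p6) gave promoters for 9 of 10 members and the microRNA sequences.

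The test of group was run with limma 3.58.1 (R 4.3.3, lmFit and eBayes with a trend) on log2(normalized count + 1), keeping genes that averaged at least 10, after a check on simulated data. The correction subtracted, in each library, a loess fit (span 0.3) of deviations from the gene mean on GC content and log2 length. Ratios and shares had exact two-sided permutation tests in Python 3.11.15 (SciPy 1.17.1). The members, lists and tests were chosen with earlier results of these data known. Named were all members, *Tet1* to *Tet3*, up to 4 passing genes per list with the largest log2 fold change, the 3 genes most like *Ago1*, and genes overlapping a member. On the opposite strand *C130032M10Rik*, a coding gene, overlaps *Trim71* by 728 bases and *Gm13061* overlaps *Lin28a* by 695. Reads of those shared bases cannot be told apart by strand either. *Gm47288* lies in *Drosha*, and *Mir693* and *Gm22474* in *Xpo5*. None of these overlapping genes has values. *Tnrc6a* to *Tnrc6c*, *Tut7*, *Dis3l2*, *Ranbp1*, *Ago3*, *Ago4*, the named marker genes and 3 let-7 targets that fell were added after their values were seen, and 1 gene of that list is counted but not reported here by name. No 2 lines of a group were alike within counting noise, the mean squared difference being 2.59 to 3.46 times its counting variance. Alternatives were pseudocounts of 0.5 and 4, no filter, a mean of at least 50, equal totals, quantile normalization, eBayes without the trend, a replicate block, the correction with local lines or on merged exon length (both chosen after seeing the data), and each line left out.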

Additional observations from a re-analysis of the deposited data

How the results depend on the processing

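The falls of *Dgcr8* and *Tarbp2* passed under every alternative run, with 2 members lower in all of them but 1, the correction fitted with local lines, which gave 4 lower. That correction and one on merged exon length were chosen after seeing the data. Members called higher numbered 4 as deposited, 0 after the GC and length correction, 0 with local lines, 0 with exon length and 1 with the correction plus a replicate block, and 2 to 4 without 1 line. With equal totals and with quantile normalization the same 4 passed and *Drosha* passed as well. Without the filter or without the variance trend *Trim71* was not among those called.

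Under the GC and length correction the log2 fold changes were 0.20 for *Xpo5*, 0.33 for *Ago1*, 0.12 for *Ago2*, -0.20 for *Trim71*, -0.08 for *Drosha* and -0.03 for *Lin28a*. With a replicate block added they were 0.33 for *Ago1*, 0.12 for *Ago2*, -0.20 for *Trim71*, -0.08 for *Drosha* and -0.03 for *Lin28a*. With local lines they were 0.19 for *Xpo5*, 0.35 for *Ago1*, -0.11 for *Ago2*, -0.35 for *Trim71*, -0.10 for *Drosha*, -0.04 for *Lin28a*, -0.41 for *Dicer1*, -0.08 for *Tet1* and -0.14 for *Tet2*. With exon length they were 0.20 for *Xpo5*, 0.43 for *Ago1*, 0.10 for *Ago2*, -0.11 for *Trim71*, -0.08 for *Drosha* and -0.07 for *Tet2*. *Drosha* was 0.22 with equal totals and 0.22 with quantile normalization, and *Dicer1* was 0.05 with equal totals. *Trim71* kept 0.28 but not its call without a filter or without the variance trend. The cause was not tested.

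Without 1 line *Ago2* ranged from 0.33 to 0.46, *Trim71* from 0.18 to 0.40, *Dicer1* from -0.09 to 0.04, reaching 0.04 without *Ctrl* replicate 3, and *Lin28a* from -0.04 to 0.11, reaching -0.04 without *Ctrl* replicate 1. *Tet2* ranged from -0.02 without *Ctrl* replicate 2 to 0.26. The ratios of gene pairs and the share of *Ago2* kept their direction in every alternative run.

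Deviations of same-numbered lines correlated at -0.00543 to 0.000706 across genes. The paper describes its RNA data as coming from independent experiments, and the labels do not say whether same-numbered lines shared one. A correlation across all genes cannot decide this, since a batch may touch only some of them. The replicate block called 1762 genes higher and 1980 lower, beside 1731 and 1934 without it, and with the correction it added *Xpo5* (0.20). Over all genes, 1025 were higher after correction, 1033 with the block added, 1014 with local lines and 1021 with exon length, and 1075 higher and 1217 lower without the variance trend. Of the calls, 47.2% were higher as deposited, 61.9% with equal totals and 33.8% after correction. Pathway lists held 27 genes higher and 17 lower, 13 and 6 without the variance trend, and 26 lower with exon length.

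Depth limits *Lin28b*, *Ago3* and *Ago4*, and a group of 3 lines allows no permutation p under 0.1.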
